A study of Mus musculus with 4 samples.

Results

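The p53 targets described here are 10 genes that the transcription factor p53 is known to activate and that act mainly in feedback, growth arrest, metabolism and repair: Mdm2, Ccng1, Trp53inp1, Zmat3, Phlda3, Sesn1, Sesn2, Btg2, Aen and Perp. They were taken as a list of symbols, and no threshold on a measured value decided membership, although the list was drawn up with earlier results of these data known. Each was read by the probe set that the platform annotation gives to that symbol alone. All 10 were measured, out of 22180 named genes on the array. Each had 1 such probe set, and a further Zmat3 probe set shared with another gene was not used. The genes were followed in 2 groups of cell cultures. Treated cells received 2 µM GSK126 for 96 h (n = 2 arrays), and control cells received the vehicle DMSO for the same 96 h (n = 2 arrays). GSK126 inhibits EZH2, the Polycomb enzyme that places the repressive histone mark H3K27me3. All cells came from lines grown out of mammary tumours of the MMTV-NIC model (female mice, strain FVB), where the mouse mammary tumour virus promoter drives activated ErbB2 and Cre recombinase from 1 bicistronic transcript in mammary epithelium, and both groups carry that transgene. The labels give neither the p53 status of the cells nor how many lines stand behind the arrays. Nothing says that replicates were separate cultures, so the p-values cover only array-to-array spread, which could be technical.

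In unstressed cells p53 is kept low because MDM2, itself a p53 target, marks it for degradation. DNA damage, oncogene activity or ribosome stress frees p53 to bind paired decamers in promoters and first introns of its targets. Which targets respond differs between tissues and stresses, and many of these genes also answer to other factors, such as ATF4 at Sesn2 or FOXO factors at Sesn1. Aen and Perp were first described as effectors of p53-dependent apoptosis and Trp53inp1 also promotes it, so the list is not free of death-related functions.

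A p53 element is made of paired decamers, each of which is called a p53 consensus half-site. The consensus pattern, with its allowed letters, reads the same on both strands, while a single matching decamer need not. RefSeq promoter windows of 300 bases (250 before and 50 after an annotated start, assembly GRCm38.p6, from a C57BL/6J reference and not from these FVB cells) were at hand for 7 of the 10 genes, as 9 windows. Exact half-sites occurred in windows of 4 of these 7 genes, Ccng1, Mdm2, Aen and Sesn1, against 9.55% of all genes with windows. By window they were in 5 of the 9, against 8.36% of all 32851 windows, where the overlapping windows of Aen share 1 site. A window with a half-site is shown for each of the 4 genes. Of the genes with a half-site, Ccng1 and Mdm2 were among the 5 higher genes at an unadjusted p under 0.05 in limma, and Aen and Sesn1 were not. Of those with windows and no half-site, Phlda3 and Sesn2 were among the 5, and Btg2 was not. Trp53inp1, also among the 5, had no window at hand. Whether half-sites go with the changes was not tested. Capitals mark exact half-sites and, in Ccng1, both decamers of the element.
Ccng1 (chr11:40755237-40755536, minus strand): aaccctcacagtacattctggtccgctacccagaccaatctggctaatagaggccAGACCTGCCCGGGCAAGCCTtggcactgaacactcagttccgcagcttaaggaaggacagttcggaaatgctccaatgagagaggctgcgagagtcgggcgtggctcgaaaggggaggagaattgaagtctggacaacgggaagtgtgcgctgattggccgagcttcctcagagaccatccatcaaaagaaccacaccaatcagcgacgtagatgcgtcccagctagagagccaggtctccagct
Mdm2 (chr10:117710709-117711008, minus strand): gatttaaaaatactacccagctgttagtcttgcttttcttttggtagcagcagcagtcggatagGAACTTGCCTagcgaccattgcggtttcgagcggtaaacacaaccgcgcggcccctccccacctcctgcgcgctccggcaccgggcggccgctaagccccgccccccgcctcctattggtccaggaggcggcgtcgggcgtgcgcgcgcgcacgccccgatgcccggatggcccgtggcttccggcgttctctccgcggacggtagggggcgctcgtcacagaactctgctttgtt
Aen (chr7:78895808-78896107, plus strand): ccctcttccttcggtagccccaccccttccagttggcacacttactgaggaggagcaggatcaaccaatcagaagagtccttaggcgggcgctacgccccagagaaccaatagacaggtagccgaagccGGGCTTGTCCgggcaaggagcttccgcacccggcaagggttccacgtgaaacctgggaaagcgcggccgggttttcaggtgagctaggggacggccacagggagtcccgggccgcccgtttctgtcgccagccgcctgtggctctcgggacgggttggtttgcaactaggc
Sesn1 (chr10:41887189-41887488, plus strand): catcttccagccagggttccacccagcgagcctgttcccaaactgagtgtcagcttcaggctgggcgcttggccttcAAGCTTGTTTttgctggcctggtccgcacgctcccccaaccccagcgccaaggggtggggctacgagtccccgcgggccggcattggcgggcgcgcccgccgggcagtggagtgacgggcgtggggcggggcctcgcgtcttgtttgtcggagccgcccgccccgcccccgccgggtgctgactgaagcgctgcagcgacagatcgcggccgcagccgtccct

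The Ccng1 window held 2 adjacent decamers at bases 56 to 75 (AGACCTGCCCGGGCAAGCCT), which fitted the paired consensus at 19 of 20 letters. Of all windows, 29 (0.0883%) held an adjacent pair that fitted at 19 or more letters. The Mdm2 window held a single half-site (GAACTTGCCT), and the p53 elements known for Mdm2 lie in its first intron, outside this window. Aen held 1 half-site (GGGCTTGTCC), which both of its overlapping windows contained. The half-site of Sesn1 (AAGCTTGTTT) was in the window of 1 of its 2 annotated starts. No exact half-site was in the windows of Btg2, Phlda3 and Sesn2. A match of letters is a description of the reference and not a measured binding site.

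Expression values are log2 values by robust multi-array averaging (RMA), so a difference of 1 is a doubling. Arrays correlated at 0.981 to 0.988 over all probe sets, and array medians were 4.79 and 4.78 for GSK126, against 4.74 and 4.73 for DMSO. Across all genes 96 of 22180 passed an adjusted p of 0.05 in limma (0.433%), 58 higher and 38 lower. After centring on array medians the split was 55 higher and 62 lower. The count was 0 in limma without GSK126 replicate 1 or without GSK126 replicate 2, with 2100 and 1771 genes under 0.05 before adjustment, and it was 4 without DMSO replicate 1 and 2 without DMSO replicate 2. The 5 luminal epithelial markers (Epcam, Krt8, Krt18, Krt19, Cdh1) summed to 12.95 to 12.97 on the GSK126 arrays and 12.98 to 13.02 on the DMSO arrays, as log2 of the summed linear values. The 3 basal markers measured (Krt14, Trp63, Acta2) summed to 6.89 to 6.95 with GSK126 and 6.98 to 7.18 with DMSO, where Krt14 was at 5.58 and 5.30 with GSK126, against 5.74 and 6.16 with DMSO (adjusted p = 0.384). Of the 5 immune markers measured, Ptprc, Cd3e, Itgam and Lyz2 were dim (below 4.77, the 40th percentile of gene means) on every array. The immune sum was 9.27 to 9.30 with GSK126 and 8.39 to 8.50 with DMSO, which followed Cd68, a lysosomal membrane protein of macrophages and other cells (9.16 and 9.12 with GSK126, 8.20 and 8.08 with DMSO). Cd68 was 1 of the 96 genes past the threshold (change 1, SE 0.09, adjusted p = 0.01 in limma). Adipocyte markers (Adipoq, Plin1, Fabp4) summed to 5.71 to 5.80 with GSK126 and 5.64 to 5.68 with DMSO, with Adipoq and Fabp4 dim on every array. The sums overlapped between groups for the 5 fibroblast markers (7.25 to 7.31 with GSK126, 7.22 to 7.31 with DMSO) and the 4 endothelial markers (6.50 to 6.75 with GSK126, 6.48 to 6.64 with DMSO). The basal marker Trp63, the fibroblast markers Dcn and Lum and the endothelial marker Tek were also dim on every array. The part of other cell types in the results below was not tested. Fewer cells with a transcript and less of it per cell cannot be told apart in bulk RNA.

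None of the 10 p53 targets passed the threshold over all genes, which 0.433% of all genes passed. Their adjusted p in limma ran from 0.258 for Mdm2 to 0.974 for Sesn1. At an unadjusted p under 0.05, 5 were higher with GSK126 (Mdm2, Ccng1, Trp53inp1, Phlda3 and Sesn2) and 0 were lower, against 4.64% of all genes higher and 5.93% lower. The 5 increases were small, from 1.20-fold to 1.26-fold. Picking genes by p at standard errors of 0.08 to 0.11 leaves out smaller changes, and differences among the 5 were not tested. On 7 of the 10 genes both GSK126 arrays lay above both DMSO arrays, and on none below, against 18.2% of all genes above and 21.8% below. The narrowest of these separations were 0.006 for Aen and 0.034 for Perp. The count of 7 became 5 with arrays centred on their median and 8 after quantile normalization. The share of all genes was not computed for those settings. The median change of the 10 genes was 0.20 on the log2 scale, against -0.008 over all genes. These counts describe a list chosen with results of these data already known, and they carry no test.

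**Figure D1:**
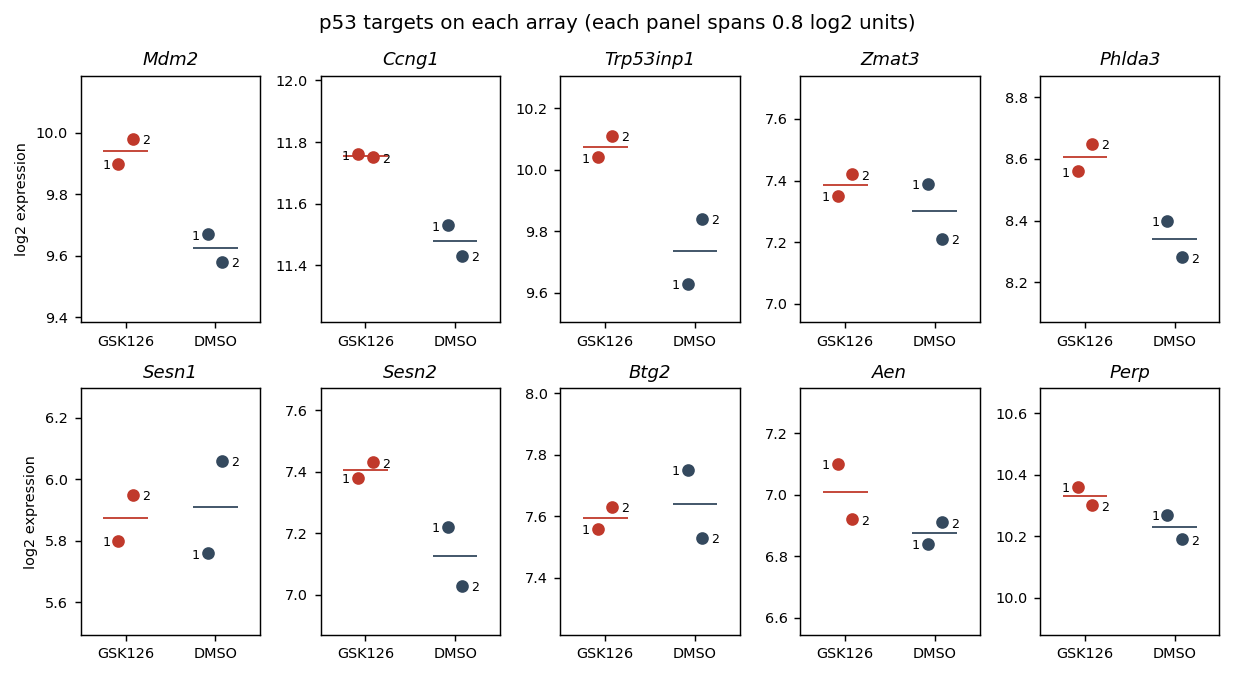
Log2 expression of the 10 p53 targets on each array, 1 panel a gene, with GSK126 left and DMSO right, replicate numbers beside the points and lines at the group means. Every panel spans 0.8 log2 units. Mdm2, Ccng1, Trp53inp1, Phlda3 and Sesn2 show separate groups, Aen and Perp groups that nearly touch, and Zmat3, Sesn1 and Btg2 groups that overlap.

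Among the listed genes, Mdm2 and Ccng1 act back on p53 itself, and neither passed the adjusted test. Mdm2, the ubiquitin ligase that limits p53, was at 9.90 and 9.98 on the GSK126 arrays, against 9.67 and 9.58 on the DMSO arrays. The lower GSK126 array lay 0.232 above the higher DMSO array, more than the gap between replicates in either group (0.08 and 0.09). The group means were 9.94 ± 0.05 and 9.63 ± 0.06 (SD, n = 2 each). Its fitted change was 0.32 (SE 0.08, 95% interval 0.12 to 0.51), a 1.24-fold difference with an adjusted p of 0.258 in limma. By unadjusted p Mdm2 stood at rank 516 of the 22180 genes, the lowest rank among the 10.

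Ccng1, which encodes cyclin G1, a partner of protein phosphatase 2A that acts on MDM2, was at 11.76 and 11.75 with GSK126, against 11.53 and 11.43 with DMSO. The groups were separated by 0.216, and the GSK126 arrays differed from each other by 0.01. The change was 0.27 (SE 0.08, 95% interval 0.08 to 0.46), or 1.21-fold, with an adjusted p of 0.314. This is the gene whose promoter window holds the near-complete p53 element shown above.

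Trp53inp1 had the largest fitted change of the list. It encodes a stress-induced nuclear protein that acts with p53 and in autophagy. Its values were 10.04 and 10.11 with GSK126, against 9.63 and 9.84 with DMSO. The DMSO arrays lay 0.21 apart and the GSK126 arrays 0.07 apart, and the groups did not overlap. The change was 0.34 (SE 0.10, 95% interval 0.11 to 0.56), a 1.26-fold difference, and the adjusted p was 0.287.

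Phlda3, whose pleckstrin-homology protein keeps the kinase AKT from the membrane, was at 8.56 and 8.65 with GSK126, against 8.40 and 8.28 with DMSO. Both GSK126 arrays were above both DMSO arrays, by 0.158 at the closest. The change was 0.27 (SE 0.09, 95% interval 0.05 to 0.48), or 1.20-fold, with an adjusted p of 0.382. Zmat3, a zinc-finger protein that binds RNA and acts on splicing, was at 7.35 and 7.42 with GSK126, against 7.39 and 7.21 with DMSO. DMSO replicate 1 lay between the 2 GSK126 arrays, and the change of 0.08 had a 95% interval of -0.16 to 0.32 (adjusted p = 0.857).

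The sestrins, stress proteins that hold back mTOR complex 1, gave different values. Sesn2 was at 7.38 and 7.43 with GSK126, against 7.22 and 7.03 with DMSO. These groups were apart by 0.154, less than the 0.20 between the DMSO arrays, and the change was 0.28 (SE 0.11, 95% interval 0.03 to 0.53, 1.21-fold, adjusted p = 0.427). Sesn1 was dimmer, at 5.80 and 5.95 with GSK126, against 5.76 and 6.06 with DMSO. Both GSK126 values fell inside the DMSO pair, and the change was -0.03 (SE 0.15, 95% interval -0.37 to 0.31, adjusted p = 0.974). Sesn1 had the widest interval of the list, which still allows a change as large as the one fitted for Sesn2, and the difference between both sestrins was not tested. The third sestrin gene, Sesn3, was at 9.07 and 9.00 with GSK126, against 9.01 and 9.22 with DMSO (change -0.08, adjusted p = 0.837).

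Btg2, an antiproliferative protein that recruits the CCR4-NOT deadenylase, had overlapping groups. Its values were 7.56 and 7.63 with GSK126, against 7.75 and 7.53 with DMSO, so the GSK126 pair lay within the DMSO pair. The change was -0.04 (SE 0.11, 95% interval -0.29 to 0.21, adjusted p = 0.942).

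Aen and Perp lay slightly above DMSO on both GSK126 arrays. Aen, an exonuclease that degrades nucleic acid during cell death, was at 7.10 and 6.92 with GSK126, against 6.84 and 6.91 with DMSO. The gap between groups was 0.006, while the GSK126 arrays differed by 0.19. Its change was 0.13 (SE 0.11, 95% interval -0.12 to 0.39, adjusted p = 0.734). Perp, a tetraspan membrane protein needed for desmosomes in stratified epithelia, was at 10.36 and 10.30 with GSK126, against 10.27 and 10.19 with DMSO. The groups were 0.034 apart, and the change was 0.10 (SE 0.08, 95% interval -0.09 to 0.29, adjusted p = 0.719).

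**Figure D2:**
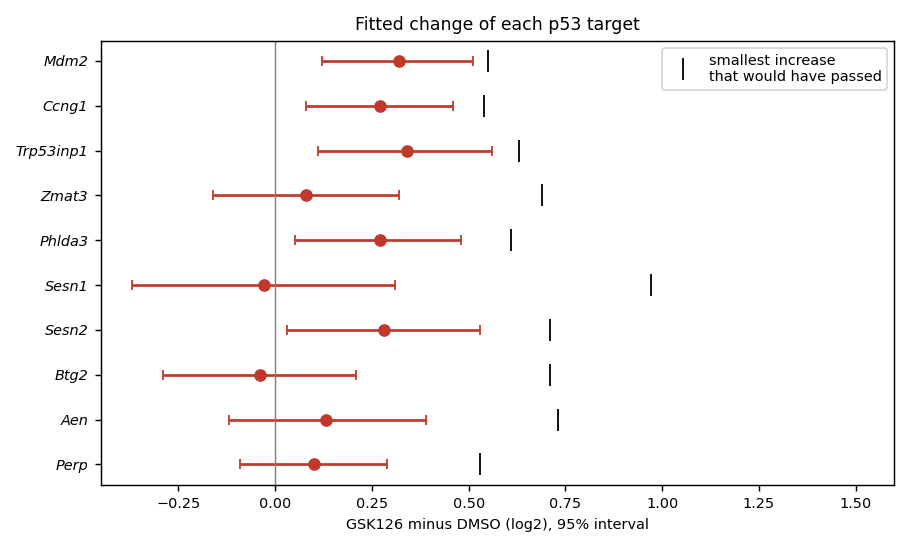
Fitted change of each p53 target (log2, GSK126 minus DMSO) with 95% intervals from limma (n = 2 arrays a group). Black ticks mark the smallest increase that would have passed the adjusted threshold at that gene's standard error. They lie between 0.53 for Perp and 0.97 for Sesn1, and for each gene the tick lies above that gene's own interval.

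The size of these differences sat below what 2 arrays a group could call. The largest unadjusted p among the 96 called genes was 0.000216. At their own standard errors Mdm2 would have needed a change of 0.55 (1.47-fold) and Ccng1 one of 0.54 (1.45-fold) to reach it. Trp53inp1 would have needed 0.63, Phlda3 0.61 and Sesn2 0.71. The upper ends of the 95% intervals were at most 1.48-fold, that of Trp53inp1, so increases larger than this lie outside the intervals of all 10 genes.

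The 10 genes differed more between the DMSO arrays than between the GSK126 arrays. Replicate gaps ran from 0.07 to 0.30 for DMSO and from 0.01 to 0.19 for GSK126, with the wider gap in DMSO for 9 of the 10, all but Aen, against 48.6% of all genes. Over all probe sets the DMSO arrays were the most alike pair (correlation 0.988), and the GSK126 arrays correlated at 0.981. GSK126 replicate 1 was closer to DMSO replicates 1 and 2 (0.987 and 0.986) than to GSK126 replicate 2. The correlations of GSK126 replicate 2 with DMSO replicates 1 and 2 were 0.983 and 0.981. DMSO replicate 2 was the lowest of the 4 arrays for 7 genes, and DMSO replicate 1 for the other 3, Trp53inp1, Sesn1 and Aen. GSK126 replicate 2 was the highest array for 5 genes and GSK126 replicate 1 for 3, while Sesn1 and Btg2 had their highest value on a DMSO array. An increase larger than the wider of both replicate gaps was fitted for 6 genes, Mdm2, Ccng1, Trp53inp1, Phlda3, Sesn2 and Perp, against 12.9% of all genes.

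**Figure D3:**
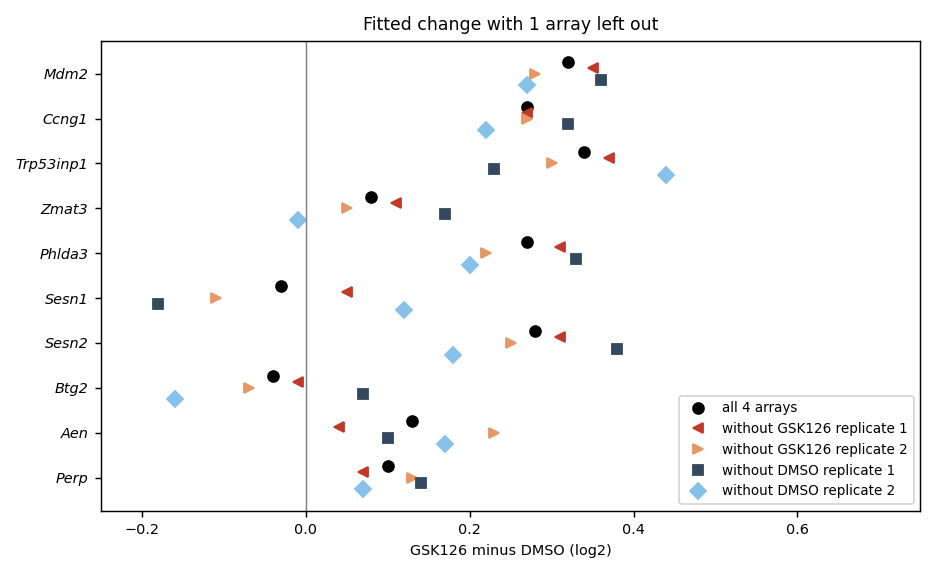
Fitted change of each p53 target (GSK126 minus DMSO, log2) with all 4 arrays and with each array left out in turn. Mdm2 stays between 0.27 and 0.36 and Trp53inp1 spreads from 0.23 to 0.44, while Zmat3, Sesn1 and Btg2 cross 0.

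With each array left out in turn, Mdm2 kept a change of 0.27 to 0.36, Ccng1 0.22 to 0.32, Phlda3 0.20 to 0.33 and Sesn2 0.18 to 0.38. Trp53inp1 depended on the controls, at 0.44 without DMSO replicate 2 and 0.23 without DMSO replicate 1. Sesn2 moved by a similar amount, to 0.18 without DMSO replicate 2 and 0.38 without DMSO replicate 1. Aen depended on the treated arrays, at 0.04 without GSK126 replicate 1 and 0.23 without GSK126 replicate 2, and Perp ran from 0.07 to 0.14. The count at an unadjusted p under 0.05 fell to 0 of 10 without GSK126 replicate 2 (4.36% of all genes higher in the same fit), 2 without GSK126 replicate 1 (4.97%) and 3 without DMSO replicate 2 (3.15%), while it stayed at 5 without DMSO replicate 1 (3.75%). It was 3 with arrays centred on their median (3.13%) and 2 without the intensity trend in the prior (4.76%). The median change of the list was 0.17 to 0.22 in the same 4 fits.

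Of 15 listed p53 regulators, 14 were measured, with a median change of -0.07. In limma 0 of them passed the adjusted threshold, against 0.433% of all genes. In the same fit unadjusted p was under 0.05 for 1 higher gene and 2 lower genes, against 4.64% of all genes higher and 5.93% lower. Trp53 itself was not analysed here. Mdm4, which inhibits p53 alongside MDM2, was at 7.82 and 7.93 with GSK126, against 7.98 and 8.03 with DMSO (change -0.13, SE 0.09, adjusted p = 0.687). Cdkn2a, whose ARF product blocks MDM2, was at 5.49 and 5.33 with GSK126, against 5.36 and 5.38 with DMSO (adjusted p = 0.964).

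The smallest p among the regulators belonged to the checkpoint kinase genes. Chek1 was at 7.70 and 7.75 with GSK126, against 8.08 and 8.05 with DMSO, a change of -0.34 (SE 0.09, adjusted p = 0.245). Chek2 was at 8.23 and 8.33 with GSK126, against 8.71 and 8.50 with DMSO (change -0.32, SE 0.10, adjusted p = 0.338). Both kinases act upstream of p53 after DNA damage, and both were lower on each GSK126 array than on either DMSO array. This held for 5 of the 14 regulators, with 1 separated the other way, against 21.8% of all genes below and 18.2% above. Hipk2, a kinase that phosphorylates p53, was higher, at 8.68 and 8.51 with GSK126, against 8.39 and 8.13 with DMSO (change 0.33, SE 0.11, adjusted p = 0.382).

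Other p53 targets for arrest, repair and metabolism did not share a direction. Of 34 listed, 29 were measured, and their median change was 0.07. With GSK126 15 had a higher mean and 14 a lower mean, against 10650 and 11529 of all 22180 genes. Both GSK126 arrays lay above both DMSO arrays for 11 of the 29 and below for 8, against 18.2% and 21.8% of all genes. Unadjusted p in limma was under 0.05 for 3 higher genes and 2 lower genes of this list, against 4.64% of all genes higher and 5.93% lower. Cdkn1a, the p21 inhibitor of cyclin-dependent kinases, was at 11.66 and 11.84 with GSK126, against 11.57 and 11.36 with DMSO. Both of its GSK126 values lay above both DMSO values, as for 18.2% of all genes. The Cdkn1a change of 0.28 (SE 0.11, 1.22-fold, adjusted p = 0.415) was close in size to those of Ccng1 and Sesn2. Only Pltp passed the threshold, against 0.433% of all genes. This phospholipid transfer protein of plasma lipoproteins rose to 6.75 and 6.72 with GSK126, against 5.52 and 5.66 with DMSO (change 1.14, SE 0.12, 2.20-fold, adjusted p = 0.0156), and its call was lost without any 1 of the 4 arrays (adjusted p from 0.119 to 0.266). Lpin1, a phosphatidate phosphatase, was at 8.08 and 8.07 with GSK126, against 7.70 and 7.74 with DMSO (change 0.36, adjusted p = 0.219). Prkab1, a subunit of AMP-activated kinase, was at 8.62 and 8.51 with GSK126, against 8.90 and 8.87 with DMSO (change -0.32, adjusted p = 0.262). Gadd45a and Ddb2 had only probe sets shared with another gene, and they were among 5 genes of this list not analysed here.

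Apoptotic p53 targets had a median change of -0.06 over the 10 measured of 11 listed. None passed in limma, against 0.433% of all genes. Unadjusted p in the same fit was under 0.05 for 0 higher genes (4.64% of all genes) and 1 lower gene (5.93% of all genes). That gene was Bid, a BH3-only activator of BAX, at 7.45 and 7.31 with GSK126, against 7.62 and 7.65 with DMSO (change -0.25, adjusted p = 0.429). Tnfrsf10b, a TRAIL death receptor, was at 8.49 and 8.72 with GSK126, against 8.43 and 8.32 with DMSO (change 0.24, adjusted p = 0.494), and its change was 0.12 without GSK126 replicate 2. Casp1, the inflammatory caspase, was at 8.01 and 8.29 with GSK126, against 8.34 and 8.37 with DMSO (change -0.20, adjusted p = 0.573), and its change was -0.34 without GSK126 replicate 2 and -0.06 without GSK126 replicate 1. Differences between these lists were not tested.

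**Figure D4:**
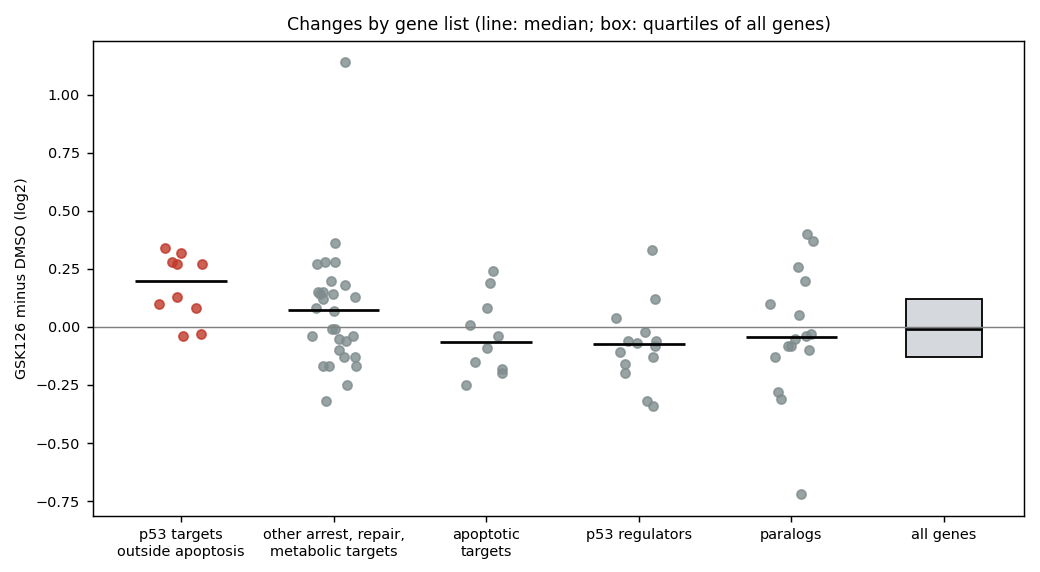
Fitted changes (GSK126 minus DMSO, log2) of single genes in 5 lists, with a line at each list's median, and a box for the quartiles of all 22180 genes (-0.13 to 0.12). The p53 targets outside apoptosis run from -0.04 to 0.34, and Pltp stands alone at 1.14 among the other targets.

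Paralogs of the 10 genes, most of which are not classical p53 targets, had a median change of -0.04 over 16 measured of 17 listed. None of them passed in limma, against 0.433% of all genes. In that fit unadjusted p was under 0.05 for 2 higher genes and 3 lower genes, against 4.64% of all genes higher and 5.93% lower. Both relatives of Phlda3 had changes below 0. Phlda2, an imprinted growth regulator, was at 5.59 and 5.51 with GSK126, against 6.37 and 6.17 with DMSO (change -0.72, SE 0.13, adjusted p = 0.0908), and it passed when dim genes were left out. Phlda1 was at 9.35 and 9.22 with GSK126, against 9.62 and 9.57 with DMSO (change -0.31, adjusted p = 0.275). Isg20, an interferon-induced exonuclease related to Aen, was at 9.04 and 9.17 with GSK126, against 8.81 and 8.60 with DMSO (change 0.40, SE 0.10, adjusted p = 0.242). Ccng2, the relative of Ccng1, was at 7.77 and 7.75 with GSK126, against 7.74 and 7.84 with DMSO (change -0.03, adjusted p = 0.952), and Trp53inp2 was at 7.74 and 7.76 with GSK126, against 7.81 and 7.59 with DMSO (change 0.05, adjusted p = 0.924).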

How the data were processed

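RNA from 4 cell samples was hybridised to single-channel Affymetrix mouse arrays. The deposited values are log2 expression values by RMA over core exons from Expression Console, per the labels, and Affymetrix Power Tools is named in the submitters' processing notes. Scan dates were not used, and the probe sets' genome build was not given in the sources used here. Of 41345 probe sets, 23521 carried 1 symbol, 1814 several and 16010 none; the highest-mean probe set stood for each of 22180 genes. GSK126 minus DMSO was fitted over all genes with limma 3.58.1 in R 4.3.3 (intensity trend, two-sided moderated test, Benjamini-Hochberg adjustment, threshold 0.05, 2 residual and 5.57 prior degrees of freedom). The procedure was also run on simulated data with independent noise drawn from the fitted prior, which holds no shared-culture or batch effect. For arrays, their number limits the precision.

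The 10 genes and the related lists were chosen with earlier results of these data known. Named are the 10 genes, Mdm4, Cdkn2a and Cdkn1a, up to 3 members of each related list by smallest p, and any past the threshold; Sesn3, Ccng2 and Trp53inp2 were added as paralogs, and Cd68 and Krt14 as markers, after their values were seen. Alternatives were a robust prior, a prior with no trend, leaving out dim genes, averaging or testing every probe set, centring, quantile normalization, the replicate block and leaving out each array. Promoter sequences came from RefSeq (GRCm38.p6).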

Additional observations from a re-analysis of the deposited data

How the results depend on the processing

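None of the 10 p53 targets passed the adjusted threshold in limma under any of the 12 alternatives, and their median change stayed between 0.15 (centred arrays) and 0.22. Directions reversed for Sesn1 (0.12 without DMSO replicate 2, 0.05 without GSK126 replicate 1, range -0.18 to 0.12 with 1 array left out), Zmat3 (-0.01 without DMSO replicate 2, range -0.01 to 0.17), Btg2 (0.07 without DMSO replicate 1, range -0.16 to 0.07) and Cdkn2a (-0.01 with centred arrays, -0.0032 after quantile normalization, -0.04 without GSK126 replicate 1), and the other 7 targets kept theirs. The count of targets higher at an unadjusted p under 0.05 (5) was chosen after seeing the data; it was 2 without the intensity trend, 3 with centred arrays and 0 to 5 with 1 array left out. Genes past the threshold numbered 0 in limma without the trend (1964 at an unadjusted p under 0.05), 149 without dim genes, 0 when every probe set was tested (2921), 10 with the replicate block and 0 to 4 with 1 array left out. The call of Pltp was the 1 call among the other arrest, repair and metabolic targets, and that count was 0 without the trend, 0 with the replicate block and 0 with any 1 array left out. The paralogs gained 1 call, Phlda2, without dim genes, where fewer genes were tested. Deviations of same-numbered arrays correlated at -0.025 over all genes, which cannot show whether replicates were paired by culture or batch. With the replicate block 5 targets were still higher at an unadjusted p under 0.05 in limma (4.4% of all genes in the same fit). The cause of these shifts was not tested.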
